A study of Mus musculus with 8 samples.

Results

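The 10 genes described here make, receive or clear the mediators with which endothelial cells (ECs) set vascular tone. Edn1, Ece1 and Ednrb belong to the endothelin pathway, Nos3, Ddah1 and Ddah2 to the nitric oxide pathway, and Ptgs1, Ptgs2 and Ptgis to the prostanoid pathway, while Ace encodes the angiotensin-converting enzyme. They were chosen by symbol for these roles, 10 of the 54532 genes in the deposited count table, and each symbol was found once. These genes, and the lists of other genes set beside them, were chosen with earlier results of these data known. All 10 passed the filter on low counts, which kept 15564 genes.

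The libraries were bulk RNA-seq of lung ECs of wild-type (WT) C57BL/6J mouse pups at postnatal day 14. There were 4 libraries from pups reared in room air (21% O2, normoxia) and 4 from pups reared in 80% O2 (hyperoxia) from the day of birth, a mouse model of bronchopulmonary dysplasia (BPD), the chronic lung disease of preterm infants. No transgene or drug is named for either group, and nursing dams were exchanged between the groups. Cells that bound CD45 beads were removed, cells that bound CD31 beads were then collected, and such an isolate is enriched for ECs but keeps some RNA of other lung cells. The sources used here do not state whether pups were pooled or whether each library came from separate animals, so the p-values measure the spread between libraries, which may be technical.

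Endothelin-1 is made as a precursor that endothelin-converting enzyme cleaves, and it constricts vessels through the type A receptor on smooth muscle, while the type B receptor on ECs clears it and releases dilators. Nitric oxide is made from arginine by endothelial nitric oxide synthase, an enzyme inhibited by asymmetric dimethylarginine (ADMA), which DDAH1 breaks down. The cyclooxygenases turn arachidonic acid into prostaglandin H2, from which prostacyclin synthase makes prostacyclin, a dilator, and thromboxane synthase makes thromboxane, a constrictor.

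Both gene pairs, the cyclooxygenase genes and Ddah1 with Ddah2, held a gene that rose and a partner that did not. The windows before their start sites are shown so that the partners can be set side by side. Each is 280 bases of RefSeq sequence on the plus strand, build GRCm38.p6, from 250 bases before the RefSeq start to 30 bases from it on. Capitals mark matches to motifs that were searched on both strands. Ptgs2 is at chr1:150099781-150100060, Ptgs1 at chr2:36230176-36230455, Ddah1 at chr3:145758442-145758721 and Ddah2 at chr17:35058785-35059064.
Ptgs2: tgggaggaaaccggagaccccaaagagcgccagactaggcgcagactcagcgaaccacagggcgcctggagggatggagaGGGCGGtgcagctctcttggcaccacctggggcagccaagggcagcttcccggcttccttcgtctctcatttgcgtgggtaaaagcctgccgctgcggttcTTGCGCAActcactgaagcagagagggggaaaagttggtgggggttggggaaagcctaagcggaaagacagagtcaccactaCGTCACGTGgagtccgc
Ptgs1: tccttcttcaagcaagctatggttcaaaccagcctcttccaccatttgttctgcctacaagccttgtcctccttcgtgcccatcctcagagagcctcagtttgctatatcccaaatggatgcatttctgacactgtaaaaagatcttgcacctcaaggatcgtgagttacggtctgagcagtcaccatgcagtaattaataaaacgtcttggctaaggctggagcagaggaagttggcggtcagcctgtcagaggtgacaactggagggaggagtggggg
Ddah1: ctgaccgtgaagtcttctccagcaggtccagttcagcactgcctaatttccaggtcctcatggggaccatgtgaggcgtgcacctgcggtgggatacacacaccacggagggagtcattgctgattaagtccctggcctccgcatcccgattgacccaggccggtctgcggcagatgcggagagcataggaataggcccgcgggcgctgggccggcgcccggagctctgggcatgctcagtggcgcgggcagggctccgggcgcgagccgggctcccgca
Ddah2: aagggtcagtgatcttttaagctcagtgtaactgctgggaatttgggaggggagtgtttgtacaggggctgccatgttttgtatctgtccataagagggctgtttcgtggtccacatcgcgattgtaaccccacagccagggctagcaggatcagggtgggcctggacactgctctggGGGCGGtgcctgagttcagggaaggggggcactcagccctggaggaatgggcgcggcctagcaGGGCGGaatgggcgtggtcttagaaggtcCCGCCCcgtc

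The window of Ptgs2 held CGTCA, a half-site of the cAMP response element, at bases 14 to 18, counting the start base as 1. It held the E-box CACGTG at bases 17 to 22, so the E-box shares 2 bases with the half-site. Of 32851 windows of this length in the RefSeq table, 19.9% held CGTCA or its reverse complement TGACG, 6.79% held CACGTG and 0.438% held the overlapping pair. The Ptgs2 window also held TTGCGCAA, a palindrome bound by C/EBP factors, from base -69 (0.18% of windows), and a GC box, GGGCGG or CCGCCC, from base -170 (34.7% of windows). Ddah2 held 3 GC boxes, from bases -72, -9 and 21. The windows of Ptgs1 and Ddah1 held none of these motifs and none of the AP-1 site TGANTCA, the antioxidant response element TGACNNNGC or the TATA box TATAAA, which 7.46%, 11.5% and 13.1% of windows held. A match is a description of the letters only. Windows were found for 8 of the 10 genes, and Nos3 and Ptgis were not among them.

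Total counts ran from 16098086 to 18300730 per library, and the mitochondrial share from 0.864% to 1.05% in normoxia and from 1.21% to 1.43% in hyperoxia. The 10 pan-endothelial markers were all expressed and summed to 15945 to 16868 CPM (the count scaled to a common total on TMM-normalized library sizes) in normoxia and 15501 to 16332 CPM in hyperoxia, with Cdh5 the most abundant. The 8 markers of alveolar type 2 epithelial cells, led by the surfactant gene Sftpc, summed to 242 to 336 CPM in normoxia and 767 to 2283 CPM in hyperoxia, and 8 of 8 rose. Hyperoxia 3 stood apart with 767 CPM, where the other 3 of its group held 2006 to 2283 CPM. Without hyperoxia 3 the same number of the 10 genes passed the edgeR test described below, 5, and 33.3% of all genes passed it.

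Of the 10 genes, 3 rose in hyperoxia (Ptgs2, Ddah1 and Ednrb), 2 fell (Ddah2 and Ace) and 5 did not pass the test (Edn1, Ece1, Nos3, Ptgs1 and Ptgis). The test was edgeR's quasi-likelihood test with a Benjamini-Hochberg adjusted p under 0.05 over all genes. By the same rule 35.6% of all 15564 genes passed, 18.5% higher and 17.1% lower. A log2 fold change of at least 1 in either direction was reached by Ptgs2 and Ddah1, 2 of the 10, against 6.98% of all genes (5.62% higher and 1.36% lower). The CPM of the groups did not overlap for 4 of the 10 genes, Ptgs2 and Ddah1 higher and Ddah2 and Ace lower, against 35.4% of all genes. The median log2 fold change was 0.03 over the 10 genes and -0.00400 over all genes. In bulk libraries fewer cells of a type and less RNA per cell cannot be told apart, and this holds for each value below.

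**Figure D1:**
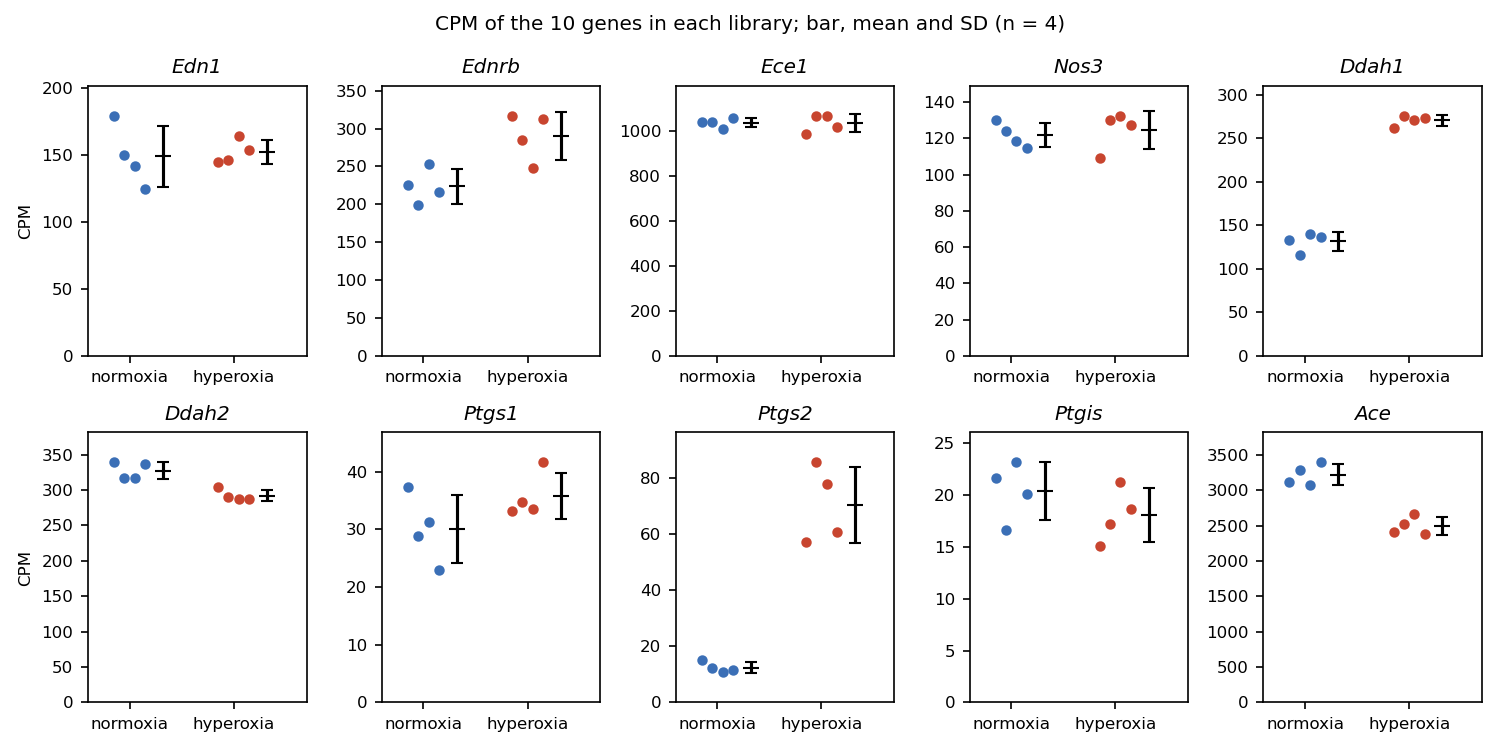
CPM (y axis, from 0) of each of the 10 genes in each library, normoxia in blue and hyperoxia in red, libraries 1 to 4 from left to right, with the mean and SD of each group (n = 4) in black. The hyperoxia points of Ptgs2 (57.0 to 85.3 CPM) and Ddah1 (261 to 275 CPM) lie above every normoxia point, and those of Ace and Ddah2 lie below, while the groups overlap in the other 6 genes.

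In the endothelin pathway the type B receptor rose, and the ligand and its converting enzyme did not pass the test. Edn1 (ENSMUSG00000021367, chr13:42301476-42307990, GRCm38, plus strand) encodes the endothelin-1 precursor. It stood at 179, 149.8, 142 and 125 CPM in normoxia 1 to 4 and at 145, 146, 164 and 153 CPM in hyperoxia 1 to 4. Normoxia held both the highest and the lowest library, and the hyperoxia values lay between them. The log2 fold change was 0.03 (SE 0.0940, 95% interval -0.18 to 0.24, edgeR adjusted p 0.8286), and without hyperoxia 3 it was -0.00783 and without normoxia 4 -0.0468.

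Ece1 (ENSMUSG00000057530, chr4:137862237-137965229, plus strand), which encodes the membrane protease that releases endothelin-1, had the narrowest interval of the genes that did not pass. Its CPM was 1039.6, 1039.9, 1006 and 1058 in normoxia and 985, 1065, 1065 and 1014 in hyperoxia. The normoxia values lay within the range of the hyperoxia values, and the log2 fold change was -0.00479 (SE 0.0439, 95% interval -0.10 to 0.09, edgeR adjusted p 0.945).

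Ednrb (ENSMUSG00000022122, chr14:103814625-103844402, minus strand) encodes the type B endothelin receptor, and in the mouse lung it is also used as a marker of aerocyte capillary ECs. It stood at 226, 199, 254 and 216 CPM in normoxia and at 317, 285, 248 and 312 CPM in hyperoxia. The other 3 hyperoxia libraries lay above all normoxia libraries, and hyperoxia 3 lay below normoxia 3. The log2 fold change was 0.38 (SE 0.0892, edgeR adjusted p 0.0073) and 0.44 without hyperoxia 3 (adjusted p 0.00203). Beside it, the 6 other aerocyte markers, led by Apln, summed to 837 to 1183 CPM in normoxia and 2050 to 2431 CPM in hyperoxia, and 6 of 6 rose. The part of these cells in the value of Ednrb was not tested.

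The 5 other genes of this pathway are the ligands Edn2 and Edn3, the type A receptor Ednra, the second converting enzyme Ece2 and Mme, which encodes neprilysin, a protease that degrades endothelin. Of these 3 were tested and 2 rose, where 18.5% of all genes tested rose. Ednra went from 3.001 ± 1.17 to 7.87 ± 3.04 CPM (SD, n = 4 each, log2 fold change 1.39, edgeR adjusted p 0.00752). Mme went from 1.79 ± 0.687 to 7.27 ± 3.12 CPM (log2 fold change 2.02, edgeR adjusted p 0.00235). Edn3 stood at 0.753 and 1.91 CPM (adjusted p 0.0512), and Edn2 and Ece2 were at or below 0.166 CPM in every library. Beside Ednra, the receptor of smooth muscle, the 8 mural and smooth muscle markers, led by Rgs5, summed to 47.0 to 82.8 CPM in normoxia and 103 to 181 CPM in hyperoxia, and 7 of 8 rose. The 7 fibroblast markers, led by Mfap4, summed to 125 to 244 and 158 to 459 CPM, and 3 of 7 rose.

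On FPKM, which divides by gene length and so allows levels of genes to be compared, Ednra stood at 0.00996 of Ednrb in normoxia (geometric mean, range 0.00653 to 0.0160) and 0.0198 in hyperoxia (0.0122 to 0.0288). The groups overlapped, and the difference was 0.99 on the log2 scale (exact permutation test, two-sided, p 0.0571, n = 4 each), and its p was also 0.0571 after Benjamini-Hochberg adjustment over the 3 ratios compared.

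In the nitric oxide pathway the synthase did not pass the test, and Ddah1 and Ddah2 moved in opposite directions. Nos3 (ENSMUSG00000028978, chr5:24364810-24384474, plus strand) encodes endothelial nitric oxide synthase. It stood at 129.9, 124, 118 and 115 CPM in normoxia and at 109, 130.1, 132 and 127 CPM in hyperoxia. Hyperoxia held both the lowest and the highest library. The log2 fold change was 0.04 (SE 0.0658, 95% interval -0.11 to 0.18, edgeR adjusted p 0.714), and from 0.00554 to 0.0945 with single libraries left out. In the GENCODE M21 annotation 25.2% of its exon bases overlap the antisense gene Gm15587 and 7.12% overlap Atg9b on the opposite strand. These genes stood at 2.78 and 3.53 CPM in normoxia and 4.05 and 4.28 CPM in hyperoxia, and since the use of strand in counting was not given, reads in the overlaps cannot be assigned with certainty.

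Ddah1 (ENSMUSG00000028194, chr3:145758675-145894277, plus strand) encodes a dimethylarginine dimethylaminohydrolase, an enzyme that breaks down ADMA. Its CPM was 133, 116, 139.7 and 137 in normoxia and 261, 275, 271 and 274 in hyperoxia. The highest normoxia library lay far below the lowest hyperoxia library, and hyperoxia 3 lay among the others of its group. Ddah1 rose with a log2 fold change of 1.04 (SE 0.0598, 95% interval 0.91 to 1.17, edgeR adjusted p 8.31e-07), which is 2.06-fold. Without normoxia 2, its lowest library, the log2 fold change was 0.98.

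Ddah2 (ENSMUSG00000007039, chr17:35059035-35062095, plus strand), the other gene of the pair, moved the other way by a small amount. It stood at 339, 317, 317 and 336 CPM in normoxia and at 304, 290.3, 287 and 287 CPM in hyperoxia. All hyperoxia libraries lay below all normoxia libraries, hyperoxia 1 closest to them. The log2 fold change was -0.17 (SE 0.0439, 95% interval -0.26 to -0.07, edgeR adjusted p 0.0136).

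The levels of the pair were also compared on the FPKM scale. The Ddah2 level was 6.24 times the Ddah1 level in normoxia (geometric mean, range 5.67 to 6.85) and 2.70 times in hyperoxia (2.62 to 2.91). Ddah2 was the higher of the pair in all 8 libraries. The difference was -1.21 on the log2 scale, with a two-sided p of 0.0286 by the exact permutation test (n = 4 each), the smallest that 4 against 4 libraries allow, and an adjusted p of 0.0429 over the 3 ratios.

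Of the 23 other nitric oxide genes, 20 were tested, 5 rose and 2 fell, with a median log2 fold change of 0.12. The risers included the inducible synthase Nos2, which went from 51.6 ± 4.07 to 92.2 ± 3.30 CPM (SD, n = 4 each, log2 fold change 0.84, edgeR adjusted p 3.17e-06), with groups that did not overlap. The macrophage and leukocyte markers, led by Lyz2, summed to 166 to 336 CPM in normoxia and 218 to 499.8 CPM in hyperoxia. Of the 7, 2 rose, Lyz2 (77.3 to 225 CPM) and Marco (1.58 to 4.73 CPM), and 1 fell, Cd68 (40.8 to 25.7 CPM). The other 4, among them Ptprc (38.4 and 38.3 CPM), did not pass. The part of macrophages and leukocytes in the value of Nos2 was not tested. Ass1, the argininosuccinate synthase that starts the recycling of citrulline to arginine, went from 18.5 ± 2.18 to 46.3 ± 3.98 CPM (log2 fold change 1.32, edgeR adjusted p 2.71e-06).

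The other 3 risers were smaller or less abundant, and they are named with Nosip because each passed the test, after their values were seen. Asl, argininosuccinate lyase, completes the recycling of arginine (log2 fold change 0.28, adjusted p 0.0333 in edgeR), and it passed in 6 of 18 alternatives. Slc7a1, a carrier of arginine into cells, went from 58.2 to 80.9 CPM (0.47, adjusted p 0.0025). Gucy1b1, the beta subunit of soluble guanylate cyclase, the nitric oxide receptor, went from 18.7 to 33.5 CPM (0.84, adjusted p 0.00099). Cav1, the caveolin that binds and restrains the endothelial synthase, fell from 1930.4 ± 74.8 to 1412 ± 78.9 CPM (log2 fold change -0.45, edgeR adjusted p 8.74e-05). Nosip, a protein that binds the same synthase, fell from 51.0 to 43.1 CPM (-0.24, adjusted p 0.0158). Nostrin, another binding partner, stood at 175 and 176 CPM (adjusted p 0.879), and Prmt1, an enzyme that methylates arginine, at 78.8 and 80.0 CPM (adjusted p 0.782).

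**Figure D2:**
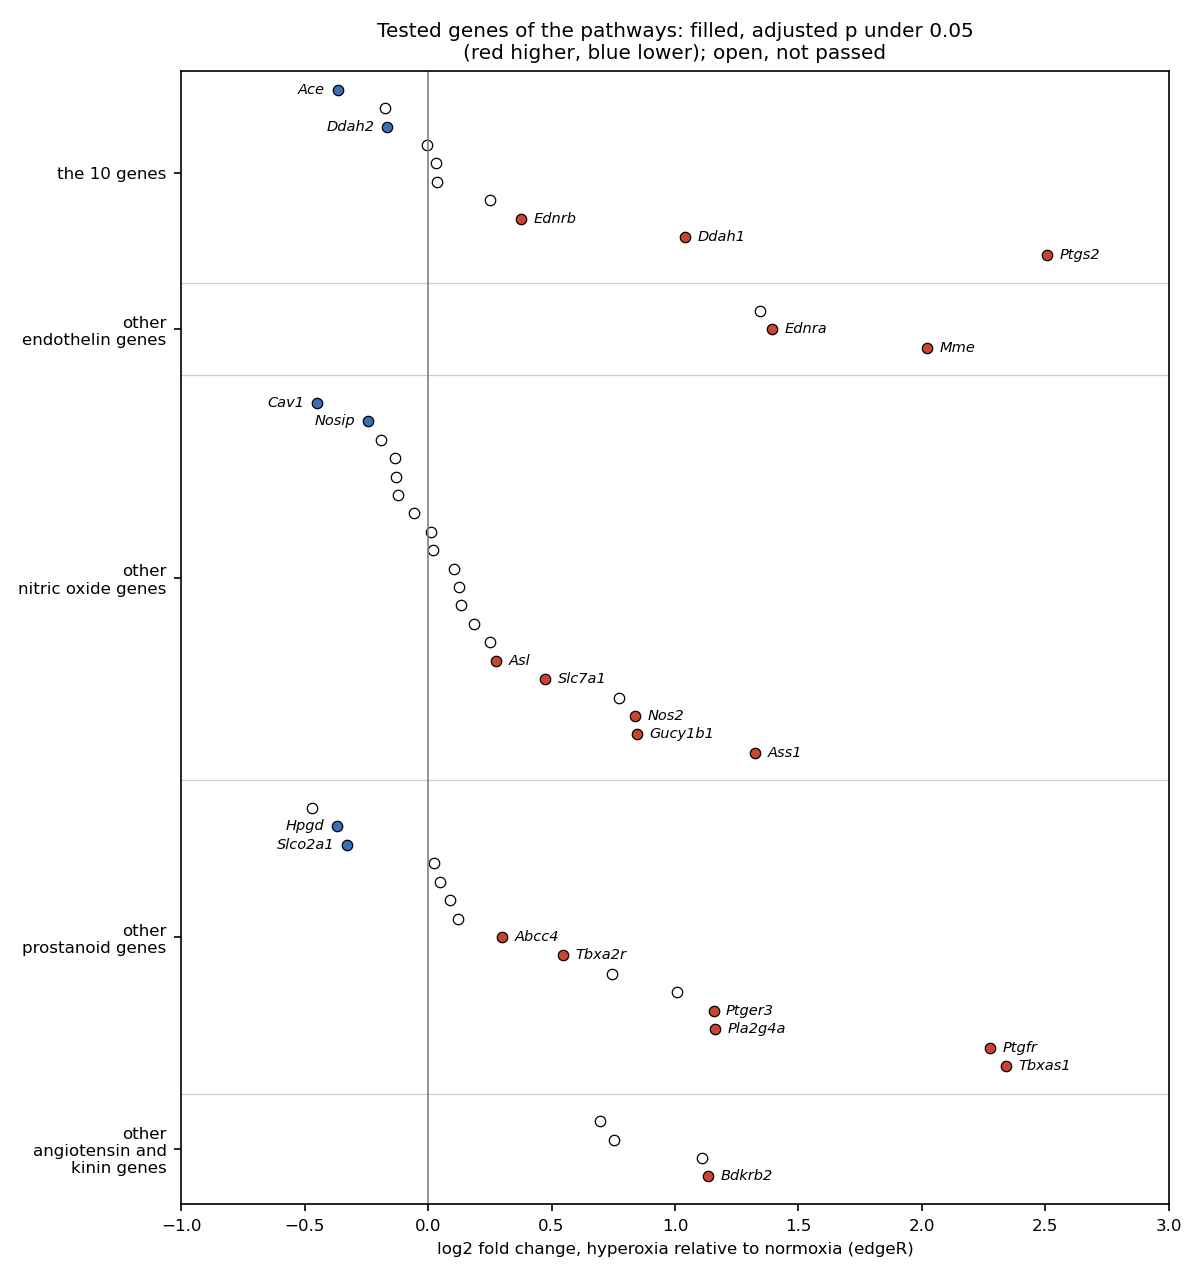
Log2 fold change in hyperoxia relative to normoxia (x axis) of the 10 genes and of the tested genes of the 4 other pathway lists, each list sorted from low to high, with filled points for an edgeR adjusted p under 0.05 and open points for genes that did not pass. Ptgs2 (2.51), Tbxas1 (2.34), Ptgfr (2.28) and Mme (2.02) lie farthest to the right, and Cav1 (-0.45) has the largest fall among the filled points.

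In the prostanoid pathway 1 of the 2 cyclooxygenases rose several-fold, and prostacyclin synthase did not pass the test. Ptgs2 (ENSMUSG00000032487, chr1:150100031-150108227, plus strand) encodes cyclooxygenase 2, the inducible isoform. It had 248, 213, 192 and 207 counts in normoxia and 999, 1507, 1358 and 1092 counts in hyperoxia, which is 15.2, 12.1, 10.7 and 11.4 CPM against 57.0, 85.3, 77.7 and 60.6 CPM. The lowest hyperoxia library lay well above the highest normoxia library, and hyperoxia 3 was the second highest. Ptgs2 rose 5.68-fold (log2 fold change 2.51, SE 0.149, 95% interval 2.18 to 2.83, edgeR adjusted p 1.01e-06), the largest change among the 10 genes.

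Ptgs1 (ENSMUSG00000047250, chr2:36230426-36252272, plus strand) encodes cyclooxygenase 1, the constitutive isoform. Its CPM was 37.3, 28.8, 31.3 and 23.0 in normoxia and 33.1, 34.8, 33.5 and 41.6 in hyperoxia. The groups overlapped through normoxia 1, which lay above all but one of the hyperoxia libraries. The log2 fold change was 0.25 (SE 0.131, 95% interval -0.04 to 0.54, edgeR adjusted p 0.163). Without normoxia 1 it was 0.37 and passed (adjusted p 0.0361).

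On FPKM the order of the pair turned. The Ptgs2 level was 0.351 of the Ptgs1 level in normoxia (geometric mean, range 0.291 to 0.422) and 1.65 times it in hyperoxia (1.23 to 2.08). Ptgs1 was the higher gene in each normoxia library and Ptgs2 in each hyperoxia library. The difference was 2.23 on the log2 scale (exact two-sided permutation p 0.0286, the smallest possible with n = 4 each, adjusted p 0.0429 over the 3 ratios).

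Ptgis (ENSMUSG00000017969, chr2:167191805-167240604, minus strand) encodes prostacyclin synthase. It stood at 21.7, 16.7, 23.2 and 20.1 CPM in normoxia and at 15.1, 17.2, 21.3 and 18.7 CPM in hyperoxia. The groups overlapped, with hyperoxia 3 above normoxia 2 and normoxia 4. The log2 fold change was -0.17 (SE 0.124, 95% interval -0.45 to 0.10, edgeR adjusted p 0.305), and with single libraries left out it ran from -0.26 (without hyperoxia 3 or normoxia 2) to -0.0965 (without hyperoxia 1), with no adjusted p below 0.113. On the opposite strand 1110018N20Rik overlaps 6.08% of its exon bases, and Gm43621 overlaps 3.81% of those of Ptgs1, both at under 1 CPM in either group.

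Of the 18 other prostanoid genes, 15 were tested, 6 rose and 2 fell, with a median log2 fold change of 0.30. Tbxas1, thromboxane synthase, went from 5.42 ± 0.231 to 27.5 ± 3.87 CPM (SD, n = 4 each, log2 fold change 2.34, edgeR adjusted p 2.36e-07), and Tbxa2r, the thromboxane receptor, from 46.2 ± 5.50 to 67.5 ± 7.68 CPM (0.55, adjusted p 0.00148). Pla2g4a, the phospholipase that frees arachidonic acid, went from 5.003 ± 0.854 to 11.2 ± 0.947 CPM (1.16, adjusted p 0.000115). The prostaglandin receptors Ptger3 and Ptgfr rose from low levels, 1.09 to 2.43 CPM and 0.317 to 1.55 CPM (adjusted p 0.00105 and 0.000746). Abcc4, a prostaglandin exporter named after its value was seen, had a log2 fold change of 0.30 (adjusted p 0.0128).

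Both abundant genes of prostaglandin clearance fell. Slco2a1, the prostaglandin uptake carrier, went from 1665 ± 61.4 to 1325 ± 55.3 CPM (log2 fold change -0.33, edgeR adjusted p 0.000395), and Hpgd, the dehydrogenase that inactivates prostaglandins, from 1014 ± 29.8 to 785 ± 31.5 CPM (-0.37, adjusted p 0.000138). Groups of both genes did not overlap. Ptgir, the prostacyclin receptor, stood at 0.574 and 1.16 CPM (log2 fold change 1.01, adjusted p 0.0628), and Ptges3, a prostaglandin E synthase and cochaperone, at 57.2 and 59.1 CPM (adjusted p 0.541).

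Ace (ENSMUSG00000020681, chr11:105967945-105989964, plus strand) encodes the enzyme that makes angiotensin II and degrades bradykinin, and lung capillary ECs are known for its high level. It stood at 3125, 3292, 3074 and 3394 CPM in normoxia and at 2412, 2528, 2668 and 2386 CPM in hyperoxia. All hyperoxia libraries lay below all normoxia libraries, and hyperoxia 3 was the closest to them. Ace fell, with a log2 fold change of -0.37 (SE 0.0529, 95% interval -0.48 to -0.25, edgeR adjusted p 0.000375), a change of -22.4%. Beside it, 4 of 6 general capillary markers, led by Ptprb, fell and 1 rose (8644 to 9993 CPM in normoxia, 7169 to 8327 CPM in hyperoxia), and 5 of 8 arterial markers, led by Efnb2, fell (2919 to 3595 and 2093 to 2340.0 CPM). Their part in the value of Ace was not tested.

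Of the 11 other angiotensin and kinin genes, 4 were tested and 1 rose. Bdkrb2, the constitutive bradykinin receptor, went from 32.3 ± 6.24 to 70.8 ± 9.81 CPM (SD, n = 4 each, log2 fold change 1.13, edgeR adjusted p 0.000107), with groups that did not overlap. The inducible receptor Bdkrb1 stood at 0.51 and 1.12 CPM (adjusted p 0.0593), the aminopeptidase Enpep at 7.74 and 13.0 CPM (adjusted p 0.077) and the angiotensinogen gene Agt at 0.822 and 1.33 CPM (adjusted p 0.133). The angiotensin receptor gene Agtr1a (0.438 and 1.03 CPM) was below the filter. Over the 4 lists, 14 of 42 tested genes rose and 4 fell, with a median log2 fold change of 0.26, beside 18.5% higher and 17.1% lower and a median of -0.00400 over all genes.

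The 10 genes spanned a wide range of levels. On FPKM the order in normoxia was Ace (604 ± 26.9, SD, n = 4), Ddah2 (204), Ece1 (194), Edn1 (69.1), Ednrb (52.0), Ddah1 (32.7), Nos3 (29.2), Ptgis (7.89), Ptgs1 (7.69) and Ptgs2 (2.68). The ranges over libraries of the neighbours Ddah2 and Ece1, Edn1 and Ednrb, Ddah1 and Nos3, and Ptgis and Ptgs1 overlapped. In hyperoxia the order was Ace (470.1), Ece1 (194), Ddah2 (182), Edn1 (70.7), Ednrb (67.7), Ddah1 (67.5), Nos3 (30.03), Ptgs2 (15.2), Ptgs1 (9.16) and Ptgis (7.01). Ece1 and Ddah2 overlapped there, as did Edn1 with Ednrb and Ednrb with Ddah1, while Nos3 and the prostanoid genes were each separate from their neighbours. Ddah1 thus stood level with Nos3 in normoxia and level with Ednrb in hyperoxia, and Ptgs2 moved from the lowest place to above Ptgs1 and Ptgis.

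**Figure D3:**
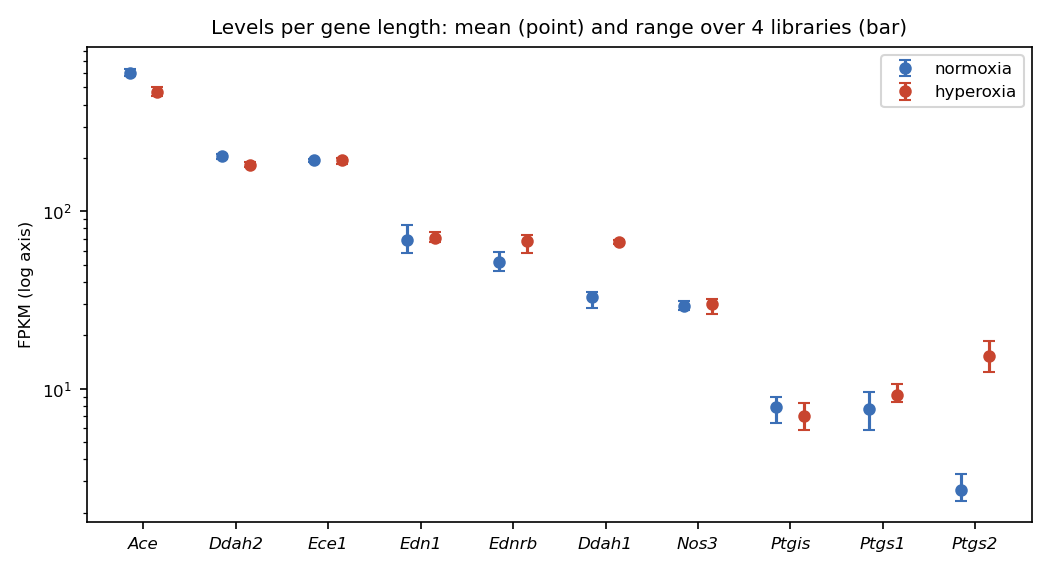
FPKM (y axis, log scale) of the 10 genes in the order of their normoxia means, with points for the mean and bars for the lowest and highest of 4 libraries, normoxia in blue and hyperoxia in red. Ptgs2 goes from the lowest level, 2.68, to 15.2, above Ptgs1 and Ptgis, and Ddah1 goes from 32.7 to 67.5, beside Ednrb at 67.7.

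The markers of alveolar epithelium moved with the groups, so each gene was also fitted with the mean log2 CPM of the type 2 and type 1 markers as a second term. The score ran from -1.52 to -0.989 in normoxia and from 0.262 (hyperoxia 3) to 1.65 in hyperoxia, and since the groups did not overlap in it, the score and the oxygen group cannot be told apart. The 6 type 1 markers, led by Ager, summed to 72.4 to 87.3 CPM in normoxia and 145 to 401 CPM in hyperoxia, and 6 of 6 rose. With the score, 2 of the 10 genes passed, Ptgs2 and Ddah1, against 1.08% of all genes. Ptgs2 had a log2 fold change of 2.70 (SE 0.386, edgeR adjusted p 0.0111) and Ddah1 of 1.05 (SE 0.184, adjusted p 0.0275), both close to the values without it. No score of an endothelial subtype, such as the aerocyte markers, was fitted, and the part of the subtypes in these values was not tested.

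The other 3 genes that had passed did not with this term. Ednrb changed sign, to -0.18 (95% interval -0.67 to 0.32, edgeR adjusted p 0.818), Ace was at -0.10 (-0.42 to 0.23, adjusted p 0.852) and Ddah2 at -0.24 (-0.56 to 0.08, adjusted p 0.587). The mean of the mural and fibroblast markers was then the second term, and the groups overlapped in it (-0.797 to -0.0244 in normoxia, -0.0924 to 0.987 in hyperoxia). With it Ptgs2 (2.33, adjusted p 0.000411) and Ddah1 (1.06, adjusted p 0.000564) again passed, against 8.15% of all genes. Ednrb (0.24, 95% interval -0.13 to 0.61, adjusted p 0.453), Ace (-0.27, -0.48 to -0.0547, adjusted p 0.127) and Ddah2 (-0.21, -0.40 to -0.0181, adjusted p 0.181) did not. The intervals of Ace and Ddah2, unlike that of Ednrb, lay below 0. Of the 42 other pathway genes, 2 passed with the alveolar score, Ass1 (1.60, adjusted p 0.0192) and Tbxas1 (1.81, adjusted p 0.0143), while Ednra, Mme, Asl, Gucy1b1 and Tbxa2r, which had risen, had negative values with it (-1.28, -1.45, -0.0966, -0.0821 and -0.0525).

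**Figure D4:**
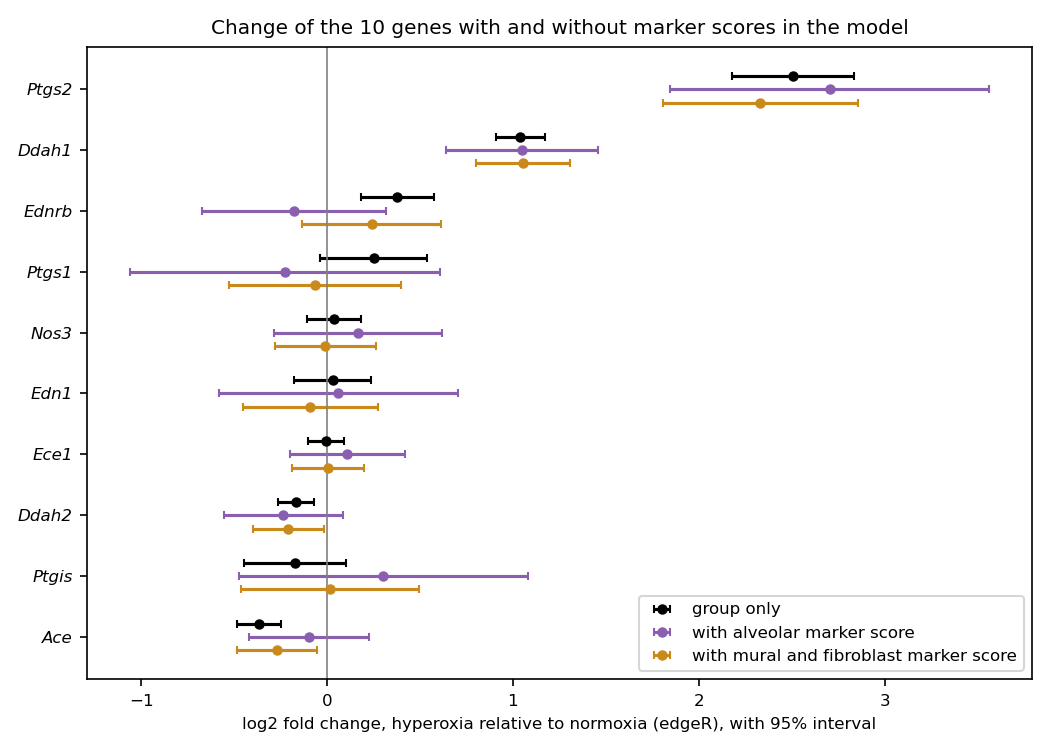
Log2 fold change of the 10 genes with its 95% interval (x axis) from the model with the group only (black), with the alveolar marker score added (purple) and with the mural and fibroblast marker score added (orange). The intervals of Ptgs2 and Ddah1 lie above 0 in all 3 models, and the interval of Ednrb lies above 0 only in the model with the group alone. Those of Ace and Ddah2 lie below 0 with the group alone and with the mural and fibroblast score.

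Hyperoxia 3 had the lowest alveolar type 2 marker sum of its group, 767 CPM, and its Ptgs2 (77.7 CPM) and Ddah1 (271 CPM) were within the range of the other hyperoxia libraries. Its Ednrb (248 CPM) and Ace (2668 CPM) were the hyperoxia values nearest to normoxia. Without this library the log2 fold changes of Ptgs2, Ddah1, Ednrb, Ddah2 and Ace were 2.45, 1.04, 0.44, -0.16 and -0.40, each past the threshold in edgeR.

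**Figure D5:**
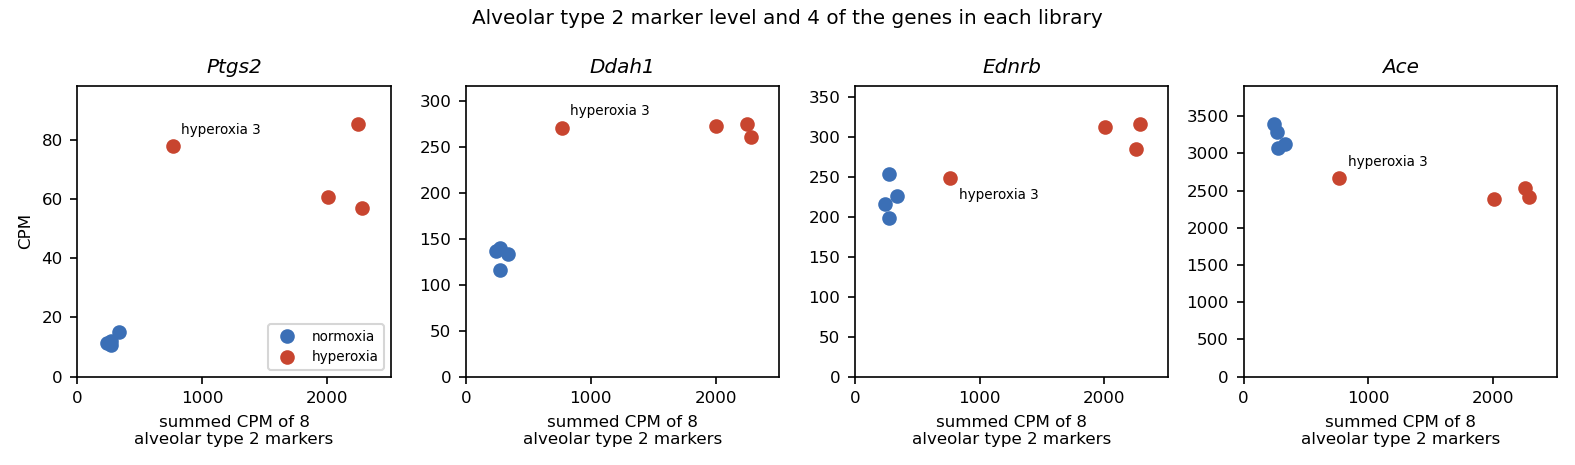
CPM of Ptgs2, Ddah1, Ednrb and Ace (y axes, from 0) against the summed CPM of the 8 alveolar type 2 markers (x axis) in the 4 normoxia (blue) and 4 hyperoxia (red) libraries. Hyperoxia 3, at 767 CPM on the x axis, lies with the other hyperoxia libraries for Ptgs2 and Ddah1 and near the normoxia libraries for Ednrb.

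For the 3 genes with the largest changes, the protein-coding genes with the most similar profile over the 8 libraries were found among 13276 genes, by the root-mean-square difference of centred log2 CPM. For Ptgs2 these were Gfpt2 (0.204), Lrrc75b (0.212) and Slc4a8 (0.214), against a median of 1.27 over all genes. For Ddah1 they were Tmod2 (0.0470), Pls3 (0.0686) and Myo5a (0.0695), against 0.560. For Ednrb they were Bex3 (0.0373), Ctsb (0.0505) and Entpd5 (0.0507), against 0.303. The likeness describes these 8 libraries, which fall into 2 groups, so any gene with a like difference between the groups scores well.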

How the data were processed

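The 10 genes and the lists of other genes were chosen with earlier results of these data known. The authors deposited whole-number counts per gene and FPKM (fragments scaled to gene length and library total) for 8 libraries. The submitters' processing notes name HISAT2 2.0.5, featureCounts 1.5.0-p3 and build mm10, and the use of strand and of reads on several genes was not given in the sources used here. The deposited FPKM could be recomputed from the counts, gene lengths and totals up to 1 constant per library (0.974 to 1.01), so it served for levels between genes and as an alternative. Samples were grouped by title, and every library was kept.

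Counts were fitted in edgeR 4.0.16 (R 4.3.3) with TMM normalization, filterByExpr (15564 of 54532 genes kept) and the group as the only term, tested by the quasi-likelihood F test, and adjusted by the Benjamini-Hochberg method over all genes tested. The study itself used DESeq2 on the counts. The SE follows from the F statistic. For ratios of paired genes the exact permutation test (two-sided) enumerated the 70 assignments of the libraries, with scipy 1.17.1. The scripts were tested on simulated counts. Total counts of 16098086 to 18300730 give the precision of each library, but the spread between libraries exceeded counting noise (chi-square per degree of freedom 4.97 to 18.1 within groups and 35.1 to 59.9 between them), so no library was merged and no counting interval is given.

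Named were the 10 genes and, of each other pathway list, the 4 most abundant genes, those past an adjusted p of 0.05 and an absolute log2 fold change of 1 and 9 partner genes chosen by role. The values of 1 of these are not reported here. Also named were the most abundant gene of each marker list, the 3 closest profiles of the 3 genes that changed most, and genes that overlap the 10. Alternatives were RLE or upper-quartile factors, other filters, DESeq2 1.42.0, limma 3.58.1 on log2(FPKM + 1) or log2(FPKM + 0.1), the replicate number as a block, marker scores as covariates and leaving out each library. Promoter windows were taken from RefSeq (GRCm38.p6). Coordinates are those of the files, which for all 10 genes were the same in GENCODE M21 (GRCm38).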

Additional observations from a re-analysis of the deposited data

How the results depend on the processing

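Under the 2 other normalizations, the 2 other filters, DESeq2 and limma at both pseudocounts, 5 of the 10 genes passed, 3 higher and 2 lower, as in the reported fit. The share of all genes that passed differed between these settings. It was lowest without a filter beyond a total above 0 (17.8%) and highest with at least 10 counts in every library of a group (37.5%). In DESeq2 it was 29.9%. The marker scores changed more calls. Of the 10 genes 5 passed without a score, 2 with the alveolar score and 2 with the mural and fibroblast score. Of all genes 35.6%, 1.08% and 8.15% passed in these 3 models. Of the 42 other pathway genes tested, 18 passed without a score and 2 with the alveolar score. With the mural and fibroblast score 9 passed, 7 of them among the 18, and the other 2, Gucy1a1 (-0.74, edgeR adjusted p 0.0324) and Pde5a (-0.48, 0.0196), had been at 0.77 and 0.13 without passing and are named after their values were seen. With the alveolar score the log2 fold changes of Ednrb, Ece1, Ddah2, Ptgs1, Ptgis and Ace were -0.18, 0.11, -0.24, -0.23, 0.30 and -0.10. With the mural and fibroblast score those of Edn1, Ednrb, Ece1, Nos3, Ddah2, Ptgs1, Ptgis and Ace were -0.0901, 0.24, 0.00705, -0.00914, -0.21, -0.0664, 0.0165 and -0.27. Of the 42 other genes, 14 changed sign with the alveolar score and 9 with the mural and fibroblast score. Among those named in the report, the alveolar score turned Edn3 (-2.003), Ptges3 (-0.00149), Enpep (-1.68) and Agt (-0.62), beside Ednra (-1.28), Mme (-1.45), Asl (-0.0966), Gucy1b1 (-0.0821) and Tbxa2r (-0.0525). It also turned Gucy1a1 (-1.54) and Pde5a (-0.86), without either passing. The mural and fibroblast score turned, beside Gucy1a1 and Pde5a, Ednra (-0.11), Edn3 (-0.29), Enpep (-0.64) and Agt (-0.26). Without a filter Ece1 was at 0.00551, and with upper-quartile factors Nostrin was at -0.0085. The cause was not tested.

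With single libraries left out, 5 to 6 of the 10 genes passed the p threshold, 1 to 2 also passed the fold threshold (1 without normoxia 2, where Ddah1 was at 0.98), and 17 to 21 of the other genes passed. In the same fits 28.5% (without hyperoxia 2) to 34.2% (without normoxia 3) of all genes passed the p threshold. Edn1 ran from -0.0468 to 0.13, Ece1 from -0.0204 to 0.0181, Ptgs1 from 0.14 to 0.37 (past the threshold only without normoxia 1), Nos3 from 0.00554 to 0.0945, Ptgis from -0.26 to -0.0965, Nostrin from -0.0231 to 0.0417 and Prmt1 from -0.0232 to 0.0460. Ptgs2 ran from 2.40 to 2.62, Ddah1 from 0.98 to 1.07, Ednrb from 0.32 to 0.44, Ddah2 from -0.18 to -0.15 and Ace from -0.40 to -0.34, each past the threshold in every case.

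Replicate numbers are shared by the groups, but same-numbered libraries did not deviate together (correlations of their deviations over genes 0.119, 0.0361, -0.125 and -0.140). The sources used here do not state whether the numbers pair the samples, and these correlations cannot exclude it. The reported fit did not use the numbers as pairs. With the replicate block 5 of the 10 genes passed, the same number as without it, 4792 genes passed in all against 5535, Asl was not past the threshold (adjusted p 0.0801) and Enpep was (0.017). For the ratios the block allows no p below 0.125.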

Other observations

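The endothelial subtype markers moved in different directions. Of 5 venous markers 3 rose, with Vwf, the most abundant, not past the threshold (2412 to 3075 CPM summed in normoxia and 2585 to 3460 CPM in hyperoxia), and of 5 tested lymphatic markers 5 rose, led by Lyve1 (1248 to 1337 and 1871 to 2130 CPM). Of 10 pan-endothelial markers 3 rose and 3 fell. Mast cell markers, led by Tpsb2, summed to 0.166 to 0.839 CPM in normoxia and 4.24 to 8.93 CPM in hyperoxia (3 of 3 tested rose), platelet markers, led by Itga2b, to 18.3 to 24.3 and 21.8 to 33.8 CPM (1 of 4 rose), and the mesothelial markers, led by Msln, to 0.0552 to 0.735 and 0.859 to 1.998 CPM (the 1 tested gene rose).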
